A study of Homo sapiens with 6 samples.

Results

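Aminoacyl-tRNA synthetases were examined in PC3 cells, a line established from a human prostate cancer metastasis, after transient transfection with a synthetic precursor of miR-130a (Pre-miR) or with a negative control precursor. The genes comprised 19 cytosolic synthetases, 16 mitochondrial synthetases and the 2 scaffold proteins AIMP1 and AIMP2, and a gene was taken as measured where the array table held a row annotated with its symbol alone. 36 of the 37 genes were measured, out of 22465 genes in all. AIMP2 was not analysed here. Both arms were plain PC3 cultures in serum-containing medium without any other manipulation named in the labels, and each arm comprised 3 arrays from independent experiments. The time between transfection and RNA extraction and the precursor dose are not given in the sources used here. All values are log2 expression values after RMA, the authors' summary of the probes of a transcript, and a difference of 1 on this scale is a doubling of the array signal.

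Each synthetase attaches its amino acid to the matching tRNAs, the step that fixes the genetic code. Nuclear genes encode separate sets of enzymes for the cytosol and for mitochondria, except that GARS1 (glycine) and KARS1 (lysine) each supply both compartments from the same gene and are counted here as cytosolic. Several cytosolic enzymes sit together with scaffold proteins in a multi-synthetase complex. When charged tRNAs run short, the kinase GCN2 senses the uncharged ones and raises translation of the transcription factor ATF4, which is known to induce amino acid transporters, amino acid synthesis enzymes and many of the cytosolic synthetases through C/EBP-ATF response elements.

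The 6 arrays had medians between 4.964 and 5.084 over all rows. Arrays of the miR-130a arm correlated with each other at r = 0.9964 to 0.9967, and negative controls 1 and 2 at 0.9958. Negative control 3 stood apart, at r = 0.992 and 0.9923 with the other controls and 0.9931 to 0.9935 with the miR-130a arrays. It also had the highest median, 5.084. Values without it are given where they change the call of a synthetase, a scaffold or a gene picked by p from a later list. All 36 genes lay above the median of all rows (4.995) in their mean over the arrays. The epithelial markers KRT8 and KRT18 were at 9.16 and 9.61 in controls, and of the 5 markers of PC3 cells KRT18 (log2 difference 0.39, limma adjusted p = 0.018) and EGFR (0.38, limma adjusted p = 0.0135) rose while KRT8, CD44 and VIM did not pass. In controls the prostate luminal genes KLK2, KLK3 and TMPRSS2 were at 4.99, 5.88 and 5.23, and the leukocyte marker PTPRC was at 2.72 (means, n = 3). Among further markers of other cell types, CD3E was at 5.29, VWF at 5.54, ACTA2 at 6.25, PECAM1 at 6.37 and COL1A1 at 6.83 in controls. All of these further markers lay above the median of all rows, so a place above it does not by itself show that a gene is expressed. The control means of VARS2 (6.64), EARS2 (6.65), CARS2 (6.75) and YARS2 (6.82) lay below that of COL1A1. Of 7 measured markers of other cell types, LYZ passed the test (4.13 ± 0.17 in controls and 4.59 ± 0.06 with miR-130a, SD, n = 3; limma adjusted p = 0.0303), on a row below the median of all rows, and the other 6 did not; its part in the results below was not tested. The row for MIR130A did not pass (3.37 ± 0.21 against 3.66 ± 0.16, SD, n = 3; limma adjusted p = 0.265). Whether it detects the transfected precursor is not known here.

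Rises were found among the cytosolic synthetases, and no mitochondrial synthetase passed the test. With miR-130a, 9 of 19 cytosolic synthetase genes rose, 1 fell and 9 did not pass, at an adjusted p below 0.05 (limma, adjusted over all 22465 genes). Among all genes tested, 4.23% passed: 2.48% rose and 1.74% fell. None of the 16 mitochondrial synthetases passed in either direction by limma, and 3 of them had an unadjusted p below 0.05, against 12 of the cytosolic genes and 3707 of all genes (16.5%). The median log2 difference, miR-130a minus control, was 0.31 over the cytosolic genes, -0.03 over the mitochondrial genes and -0.01 over all genes. The difference between the compartments was described and not tested. Control means ran from 8.44 (CARS1) to 10.65 (NARS1) for the 9 genes that rose, and from 6.64 (VARS2) to 9.08 (TARS2) for mitochondrial genes. Whether array signal bears on the difference between the compartments was not tested.

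**Figure D1:**
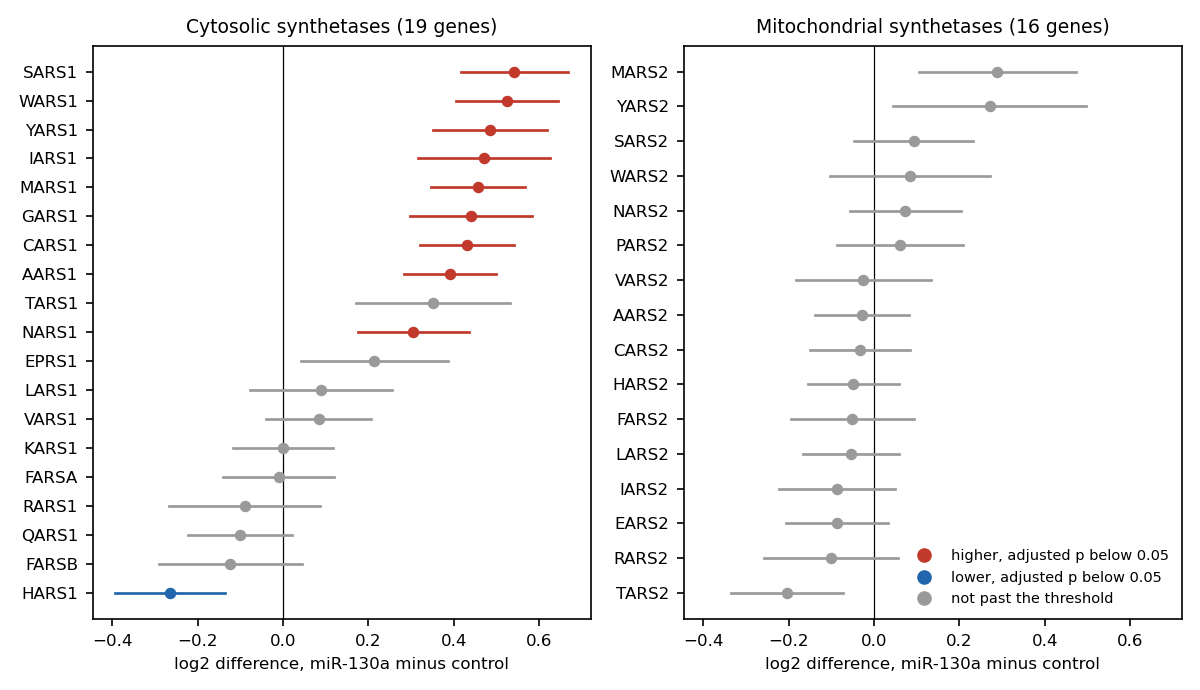
Log2 difference, miR-130a minus negative control, of each cytosolic synthetase (left) and each mitochondrial synthetase (right), with points for the estimate and lines for the 95% confidence interval from limma (3 arrays per arm). 9 cytosolic genes from NARS1 (0.31) to SARS1 (0.54) passed upwards, HARS1 (-0.26) passed downwards, and no mitochondrial gene passed.

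The largest rise was that of SARS1, the seryl-tRNA synthetase, which also charges the selenocysteine tRNA. SARS1 measured 9.34, 9.36 and 9.31 in negative controls 1, 2 and 3, and 9.85, 9.83 and 9.96 in miR-130a replicates 1, 2 and 3. It was 1.46-fold higher with miR-130a (log2 difference 0.54, SE 0.054, limma adjusted p = 0.00297). The arms were far apart, since the lowest miR-130a value exceeded the highest control value.

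WARS1, the tryptophanyl enzyme, which interferon is also known to induce, came next. Its values were 9.48, 9.51 and 9.45 in controls and 9.96, 9.99 and 10.07 with miR-130a, 1.44-fold higher (log2 difference 0.52, SE 0.052, limma adjusted p = 0.00286). YARS1, the tyrosyl enzyme, measured 8.78, 8.80 and 8.69 in controls and 9.23, 9.19 and 9.31 with miR-130a, 1.40-fold higher (SE 0.057 on the log2 scale, limma adjusted p = 0.00491). Neither gene had overlapping arms.

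Among the other class I enzymes, which share a Rossmann-fold catalytic domain, IARS1 (isoleucine), MARS1 (methionine) and CARS1 (cysteine) rose. IARS1 read 9.67, 9.69 and 9.51 in controls and 10.06, 10.06 and 10.16 with miR-130a, 1.39-fold higher (SE 0.066, limma adjusted p = 0.00974). MARS1 read 9.68, 9.63 and 9.67 against 10.10, 10.10 and 10.15, 1.37-fold higher (SE 0.048, limma adjusted p = 0.00331). For CARS1 the controls were at 8.45, 8.47 and 8.40 and the miR-130a arrays at 8.86, 8.87 and 8.88, 1.35-fold higher (SE 0.047, limma adjusted p = 0.00393). CARS1 was the tightest of these within the miR-130a arm, and negative control 3 was the lowest control for IARS1 and CARS1.

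Of the class II enzymes, built on a different catalytic fold, GARS1, AARS1 and NARS1 rose beside SARS1. GARS1 was at 10.50, 10.57 and 10.42 in controls and 10.94, 10.87 and 11.00 with miR-130a, 1.36-fold higher (SE 0.061, limma adjusted p = 0.00971). AARS1, the alanyl enzyme, was at 10.56, 10.54 and 10.59 in controls and 10.96, 10.94 and 10.97 with miR-130a, 1.31-fold higher (SE 0.046, limma adjusted p = 0.00486). NARS1, the asparaginyl enzyme, was at 10.68, 10.69 and 10.56 in controls and 10.95, 10.92 and 10.99 with miR-130a, 1.24-fold higher (SE 0.056, limma adjusted p = 0.027). NARS1 had the smallest difference of the 9. Its adjusted p rose to 0.0786 when negative control 1 was left out and to 0.134, 0.0983 and 0.15 when miR-130a arrays 1, 2 and 3 were left out in turn, so the call was lost in each case. GARS1 and IARS1 were lost when miR-130a array 1 (0.0633 and 0.0531) or array 3 (0.0648 and 0.0638) was left out. With all rows of the table tested, NARS1 (0.133), GARS1 (0.0532) and IARS1 (0.0512) missed the threshold, and NARS1 also did after median centring (0.0761). The other 6 rises passed under all 14 alternatives tried.

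By enzyme class, 5 of 9 cytosolic class I genes and 4 of 9 class II genes rose; EPRS1, which joins a class I and a class II enzyme in the same protein, was left out of this split. Levels of different genes are not compared as amounts of RNA, because rows with different probes differ in brightness.

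HARS1, the histidyl enzyme, was the only member that fell. Its values were 7.92, 7.82 and 7.80 in controls and 7.56, 7.63 and 7.56 with miR-130a, a log2 difference of -0.26 (SE 0.055, limma adjusted p = 0.0431), and the arms did not overlap. This call passed without negative control 3 (adjusted p = 0.0215) but was lost when any other array was left out (adjusted p = 0.0758 to 0.208).

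TARS1 did not pass although its difference lay within the range of the called rises, and EPRS1 lay below that range and did not pass. For TARS1, the threonyl enzyme, the controls were at 9.22, 9.28 and 9.02 and the miR-130a arrays at 9.53, 9.45 and 9.59 (log2 difference 0.35, SE 0.077, limma adjusted p = 0.0512). EPRS1, the fused glutamyl-prolyl enzyme, read 10.36, 10.43 and 10.17 in controls and 10.54, 10.49 and 10.56 with miR-130a (log2 difference 0.21, SE 0.074, limma adjusted p = 0.188). In both, the arms did not overlap and negative control 3 was the lowest array. Without negative control 3, TARS1 passed at a smaller log2 difference of 0.28 (adjusted p = 0.0314), and EPRS1 was at 0.14 (adjusted p = 0.107).

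The remaining 7 cytosolic genes had log2 differences between -0.12 and 0.09, and none passed. LARS1 (leucine) was at 0.09, VARS1 (valine) at 0.08, KARS1 at 0.00 and FARSA, the alpha subunit of the phenylalanyl enzyme, at -0.01. RARS1 (arginine) was at -0.09, QARS1 (glutamine) at -0.10 and FARSB, the beta subunit of the phenylalanyl enzyme, at -0.12. The 95% intervals of all 7 genes lay wholly below the smallest rise called, 0.31, as for KARS1 (-0.12 to 0.12) and FARSA (-0.14 to 0.12). LARS1 had the highest upper limit (-0.08 to 0.26). The value 0.31 is the estimate for NARS1, whose own interval ran from 0.17 to 0.44 and takes in the upper limit of LARS1. Differences between genes were not tested. VARS1 was the only member with more than 1 row; its other rows gave differences of 0.11 to 0.13, against 0.08 in the row used. Without negative control 3, FARSB (-0.19, limma adjusted p = 0.046) and RARS1 (-0.17, limma adjusted p = 0.0444) also passed downwards, giving 10 rises and 3 falls among the cytosolic genes, where 4.88% of all genes rose and 5.14% fell.

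**Figure D2:**
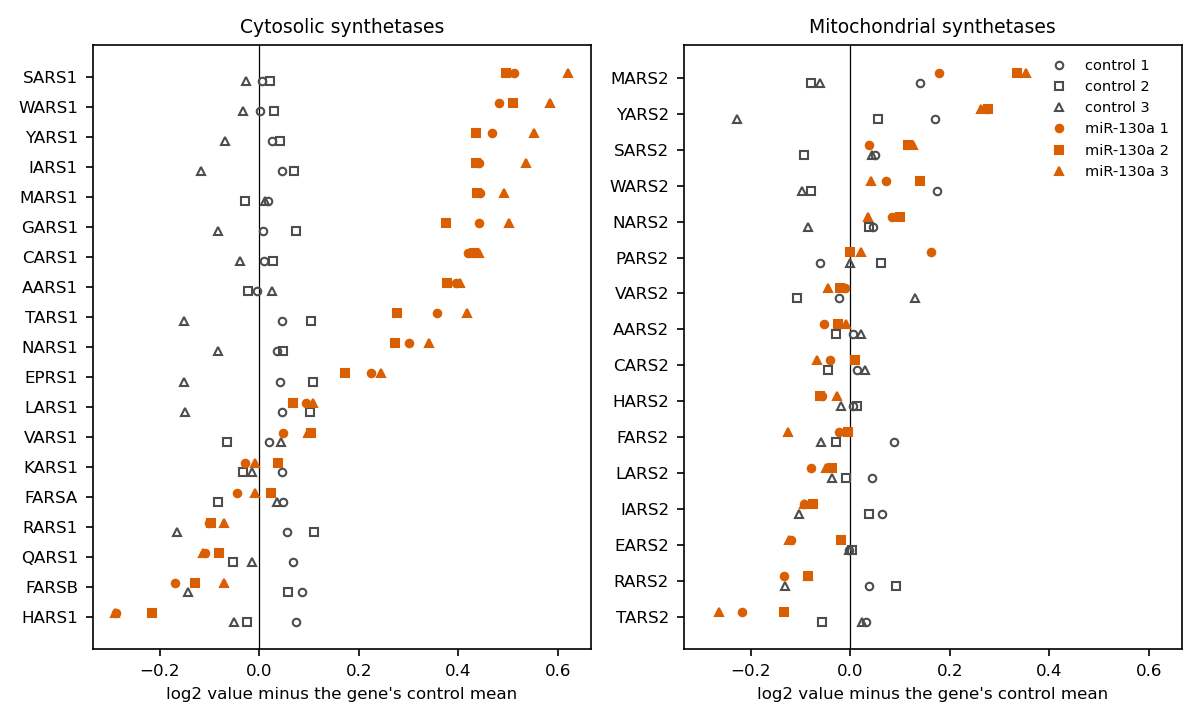
Log2 value on each of the 6 arrays minus the mean of the gene's 3 control arrays, for cytosolic (left) and mitochondrial (right) synthetases, with open grey symbols for controls and filled orange symbols for miR-130a. For the 9 cytosolic genes that rose, every miR-130a array lies right of every control, and negative control 3 (open triangles) lies lowest among the controls for genes such as EPRS1, LARS1, TARS1 and RARS1.

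Negative control 3 was the lowest control for 23 of the 36 members, against 31.6% of all genes. It lay below the mean of the other controls by 0.25 for RARS1, 0.23 for EPRS1 and TARS1 and 0.22 for LARS1 and FARSB. For AARS1 and MARS1 it lay 0.04 and 0.02 above that mean. Set against controls 1 and 2 alone, the called rises ranged from 0.26 for NARS1 to 0.53 for SARS1. The median deviation of the cytosolic genes from their control means was 0.04, 0.03 and -0.05 for negative controls 1, 2 and 3. It was 0.30, 0.27 and 0.34 for the miR-130a replicates in the same order. All 3 miR-130a arrays were therefore above all 3 controls in this median, whereas for the mitochondrial genes the miR-130a arrays were at -0.03, -0.01 and -0.04 and the controls at 0.04, -0.02 and -0.03.

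Mitochondrial synthetases charge the tRNAs that mitochondrial ribosomes use to make the few proteins encoded by mitochondrial DNA, which are parts of the respiratory chain. MARS2, the methionyl enzyme, had the largest difference, with 7.60, 7.38 and 7.40 in controls and 7.64, 7.80 and 7.82 with miR-130a (log2 difference 0.29, SE 0.079, limma adjusted p = 0.0983). YARS2, the tyrosyl enzyme, was at 6.99, 6.88 and 6.59 in controls and 7.09, 7.10 and 7.08 with miR-130a (log2 difference 0.27, SE 0.097, limma adjusted p = 0.203), and negative control 3 was far below the other controls. At the other end TARS2, the threonyl enzyme, was at 9.11, 9.03 and 9.11 in controls and 8.86, 8.95 and 8.82 with miR-130a (log2 difference -0.20, SE 0.056, limma adjusted p = 0.101). None of these 3 genes had overlapping arms, and none passed.

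The other 13 mitochondrial genes differed by -0.10 (RARS2, arginine) to 0.09 (SARS2, serine). WARS2 (tryptophan) was at 0.09, NARS2 (asparagine) at 0.07 and PARS2 (proline) at 0.06. VARS2 (valine) was at -0.02, AARS2 (alanine) and CARS2 (cysteine) at -0.03, and HARS2 (histidine), FARS2 (phenylalanine) and LARS2 (leucine) at -0.05. IARS2 (isoleucine) and EARS2 (glutamate) were at -0.09. For 14 of the 16 mitochondrial genes the 95% interval lay wholly below 0.31, the smallest rise called among cytosolic genes, and the exceptions were MARS2 (0.11 to 0.47) and YARS2 (0.05 to 0.50). Over the 16 genes the intervals spanned -0.34 to 0.50. The value 0.31 is itself an estimate with an error (NARS1, 0.17 to 0.44). With 3 arrays per arm, smaller rises lay within the error of each gene except TARS2, whose interval (-0.34 to -0.07) was wholly negative. For MARS2 and YARS2, rises above 0.31 also lay within the error. Arms without overlap were seen for 12 cytosolic genes in the upward and 2 (HARS1 and QARS1) in the downward direction, and for 2 and 4 mitochondrial genes, against 11.7% and 11.9% of all genes.

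For 16 amino acids a gene was measured in each compartment, which gave 17 pairs because FARSA and FARSB share FARS2; EPRS1 was paired with both EARS2 and PARS2. The cytosolic log2 difference exceeded the mitochondrial one in 15 of the 17 pairs, by a median of 0.21 over all pairs. The widest gaps were for isoleucine (IARS1 0.47, IARS2 -0.09), threonine (TARS1 0.35, TARS2 -0.20), cysteine (CARS1 0.43, CARS2 -0.03) and serine (SARS1 0.54, SARS2 0.09). Methionine (MARS1 0.46, MARS2 0.29) and tyrosine (YARS1 0.48, YARS2 0.27) had the mitochondrial enzymes with the highest differences. Without negative control 3, YARS2 was at 0.16 and MARS2 at 0.26. The order was turned for histidine (HARS1 -0.26, HARS2 -0.05) and for FARSB (-0.12) against FARS2 (-0.05).

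**Figure D3:**
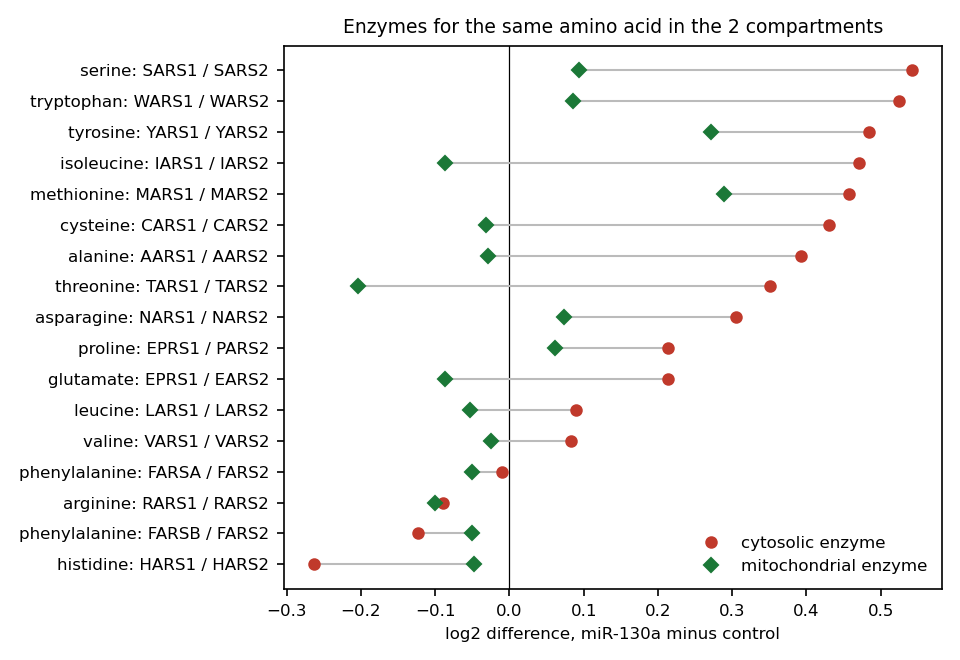
Log2 difference, miR-130a minus negative control, of the cytosolic enzyme (red circles) and the mitochondrial enzyme (green diamonds) for the same amino acid, ordered by the cytosolic value. The red circle lies right of the green diamond in 15 of 17 pairs, and the histidine pair and the FARSB pair are turned.

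Members of the multi-synthetase complex did not move together. Of its 7 measured synthetases, IARS1 and MARS1 rose, and EPRS1, LARS1, KARS1, QARS1 and RARS1 did not pass; their median log2 difference was 0.09. Of the 12 cytosolic genes outside the complex, 7 rose and 1 fell, with a median of 0.37. AIMP1, a scaffold of the complex that also has a secreted cytokine form, was at 8.27, 8.27 and 8.10 in controls and 8.06, 8.04 and 8.11 with miR-130a (log2 difference -0.14, SE 0.063, limma adjusted p = 0.312), so its arms overlapped through negative control 3. Without that array it passed downwards (log2 difference -0.20, adjusted p = 0.0309).

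The cytosolic genes were also split by whether textbook knowledge names them as ATF4 targets, a list drawn up with these results known. The split is therefore a description and not a test. All 9 rises were among the 12 genes so listed (AARS1, CARS1, EPRS1, GARS1, IARS1, LARS1, MARS1, NARS1, SARS1, TARS1, WARS1 and YARS1), where 0 fell and the median log2 difference was 0.44. The other 7 genes (FARSA, FARSB, HARS1, KARS1, QARS1, RARS1 and VARS1) had 0 rises and 1 fall, with a median of -0.09. The first list had differences above 0 in 12 of 12 genes and the second in 1 of 7 (VARS1). The median deviation from the control mean was 0.43, 0.40 and 0.47 on miR-130a arrays 1, 2 and 3 for the first list and -0.10, -0.08 and -0.07 for the second.

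Since C/EBP-ATF response elements are known in the promoters of several cytosolic synthetases, the promoters of all members were searched for the core of that element, TGATGNAA, on both strands. RefSeq promoters (GRCh38.p14), running from 250 bases before to 50 after an annotated start, were found for 31 of the 36 measured members, some with several starts. A match was present for 6 of the 8 cytosolic genes that rose and have a promoter in that table, for 1 of the 8 that did not rise (TARS1) and for 1 of 14 mitochondrial genes (YARS2). Of all 27305 genes in the table, 4.46% held a match, and of all 35116 promoters 3.62%. Of the 15247 genes that were tested and have a promoter there, 3.71% held it. By the test on the arrays, 8.56% of 432 genes that rose and 2.67% of 300 that fell held it. CARS1, GARS1 and TARS1 were counted as holding a match, although each also had a promoter without one. A match describes the letters and does not show that a factor binds there.

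The 30 bases around each match are printed on the strand that reads the core forwards, with the core in capitals, to show what the genes share.
AARS1: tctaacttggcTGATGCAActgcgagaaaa
CARS1: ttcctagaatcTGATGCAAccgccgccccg
GARS1: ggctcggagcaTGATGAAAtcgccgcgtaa
IARS1: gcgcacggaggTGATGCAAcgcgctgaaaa
MARS1: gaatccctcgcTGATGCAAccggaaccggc
NARS1: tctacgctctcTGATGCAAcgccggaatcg
TARS1: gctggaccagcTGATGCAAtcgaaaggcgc
YARS2: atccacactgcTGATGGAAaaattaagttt

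These windows lie at chr16:70289675-70289704 (plus strand, AARS1), chr11:3057407-3057436 (plus, CARS1), chr7:30594834-30594863 (minus, GARS1), chr9:92293692-92293721 (plus, IARS1), chr12:57488053-57488082 (minus, MARS1), chr18:57621804-57621833 (minus, NARS1), chr5:33440956-33440985 (minus, TARS1) and chr12:32756076-32756105 (minus, YARS2). All but GARS1 and YARS2 carry the letters TGATGCAA. In CARS1, MARS1, IARS1, TARS1, NARS1 and GARS1 the core lies near the annotated start, its first base being at -2, -4, -13, 3, 15 and -33 on the gene's own strand. In NARS1 and YARS2 the core reads forwards on the gene's own strand, and in the others it reads backwards. In AARS1 and YARS2 it lies further upstream, at -187 and -197. SARS1 and WARS1, which had the largest rises, hold no match in this window. YARS1, LARS1, VARS1, AARS2 and VARS2 were not searched.

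**Figure D4:**
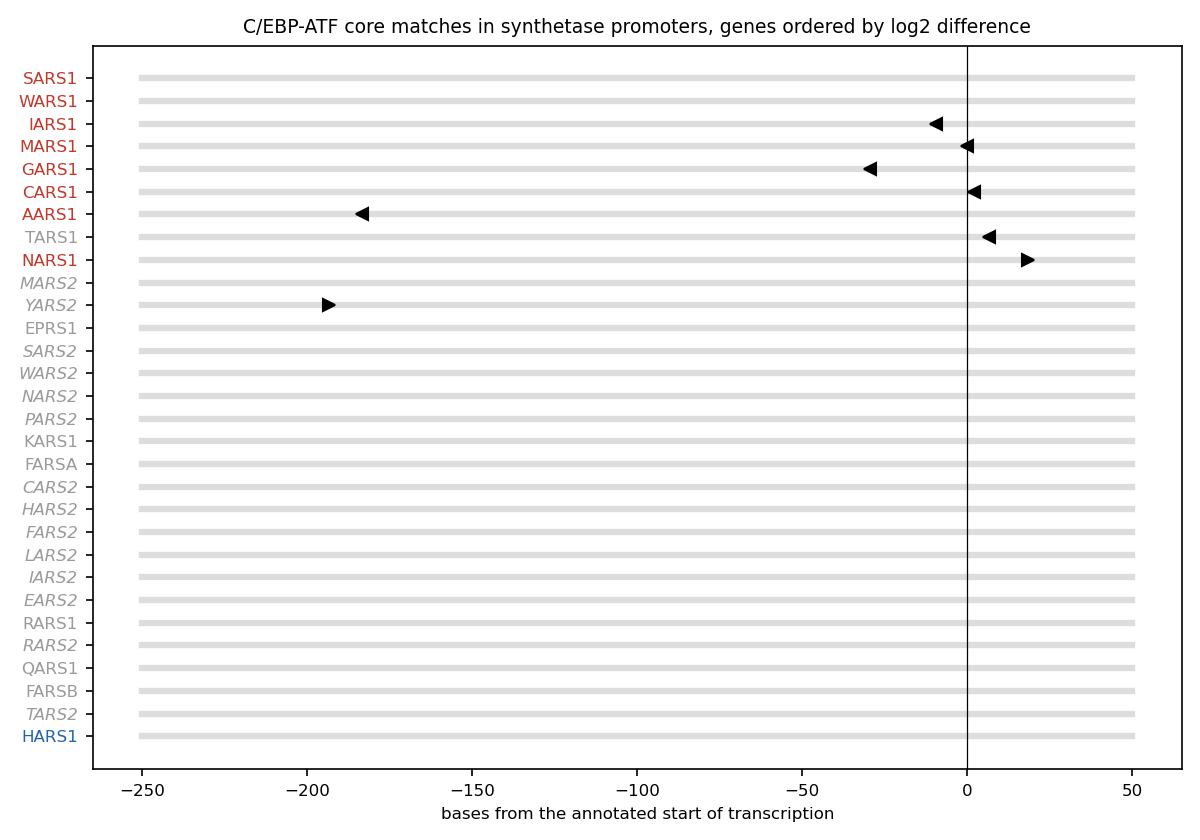
Position of matches to the C/EBP-ATF core (black triangles, pointing right where the core reads forwards on the gene's strand and left where it reads backwards) in the promoters of 30 synthetase genes, ordered from the highest to the lowest log2 difference, with grey bars for the searched stretch in bases from the start. Gene names are red where the gene rose, blue where it fell and grey where it did not pass, and italic for mitochondrial enzymes; 7 of the 8 matches lie in the 9 genes with the highest differences.

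The 250 bases before the start of AARS1, the gene whose core lies furthest upstream among those that rose, are shown as an example of where the element sits (chr16:70289507-70289756, minus strand, with the core read backwards in capitals).
AARS1 upstream: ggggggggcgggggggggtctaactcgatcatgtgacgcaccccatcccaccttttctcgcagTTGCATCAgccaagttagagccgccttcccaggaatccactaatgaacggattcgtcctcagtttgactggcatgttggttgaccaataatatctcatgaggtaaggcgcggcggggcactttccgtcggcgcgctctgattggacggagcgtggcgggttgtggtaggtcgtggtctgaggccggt

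HARS1 and HARS2 are neighbours read in opposite directions, and only 84 bases separate their annotated starts (chr5:140691371-140691454, plus strand, which is the strand of HARS2). HARS1 fell, while HARS2, with 7.31, 7.32 and 7.29 in controls and 7.25, 7.24 and 7.28 with miR-130a, did not pass (log2 difference -0.05, SE 0.046, limma adjusted p = 0.752); the difference between these neighbours was not tested. The stretch between them, shown because both genes start from it, holds no match to the core.
HARS1-HARS2 between starts: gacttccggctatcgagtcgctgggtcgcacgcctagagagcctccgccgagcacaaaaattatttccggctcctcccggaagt

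Further genes of tRNA charging were read against the share of all genes that rose, 2.48%. Of 13 measured accessory genes, SEPSECS, which makes selenocysteine on the tRNA that SARS1 has charged, rose 1.20-fold (6.70 ± 0.08 to 6.96 ± 0.03, SD, n = 3; SE 0.058 on the log2 scale, limma adjusted p = 0.0466), none fell, and the median log2 difference was -0.02; a count of 1 in so short a list is not a result about the list. PSTK, the kinase of the same selenocysteine pathway, was at 0.13 (adjusted p = 0.199), YRDC, which modifies tRNAs, at 0.17 (0.208) and QRSL1, the mitochondrial amidotransferase subunit that makes glutaminyl-tRNA, at 0.26 (0.224). SEPSECS passed without negative control 2 (adjusted p = 0.0424) or 3 (0.0333) and was lost when any other array was left out (0.149 to 0.218), and it was also lost with second quantile normalization (0.061), median centring (0.116) and all rows tested (0.191).

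Among 24 measured genes of tRNA maturation and export, XPOT, the exporter of mature tRNAs from the nucleus, rose and none fell, with a median log2 difference of -0.04. XPOT went from 10.52 ± 0.09 to 10.98 ± 0.06 (SD, n = 3), 1.38-fold higher (SE 0.062 on the log2 scale, limma adjusted p = 0.00837), and leaving out miR-130a array 1 or 3 raised the adjusted p to 0.0522 or 0.0567. The RNase P and MRP subunits POP7, RPP40 and POP1 were at -0.25, -0.17 and -0.18 (limma adjusted p = 0.0602, 0.184 and 0.218). Without negative control 3, RPP40 passed downwards (-0.21, limma adjusted p = 0.0409), where 5.14% of all genes fell. POP7 passed downwards with the dim-row filter (limma adjusted p = 0.0316), trend and robust moderation (0.0258) and array weights (0.0203). With array weights RPP40 (0.0174) and POP1 (0.0218) passed downwards as well, where 7.52% of all genes fell.

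The amino acid response list held 13 rises and 0 falls among 18 genes, with a median log2 difference of 0.50. EIF2AK4 (0.12), GCN1 (-0.08), CEBPB (0.28), EIF4EBP1 (0.15) and VLDLR (0.03) did not pass (limma adjusted p = 0.153 to 0.857). This list was drawn up with earlier results of these data known, so its count is not a test. The smallest p values were those of CHAC1, a glutathione-degrading enzyme (difference 1.69), PSAT1, an enzyme of serine synthesis (1.06), TRIB3, a pseudokinase that binds ATF4 (1.03), and SLC7A5, the large neutral amino acid transporter (0.67), with limma adjusted p between 6.28e-05 and 0.000911. ATF4 itself, named although it is not among those 4, rose by 0.38 (SE 0.050, limma adjusted p = 0.00773). The rises of the cytosolic synthetases, at most 0.54, were below those of these 4 genes, which were picked by p. CEBPG and SLC3A2 (0.45 each) and PHGDH (0.41) of the same list, chosen after their values were seen, lay within the range of the synthetases.

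**Figure D5:**
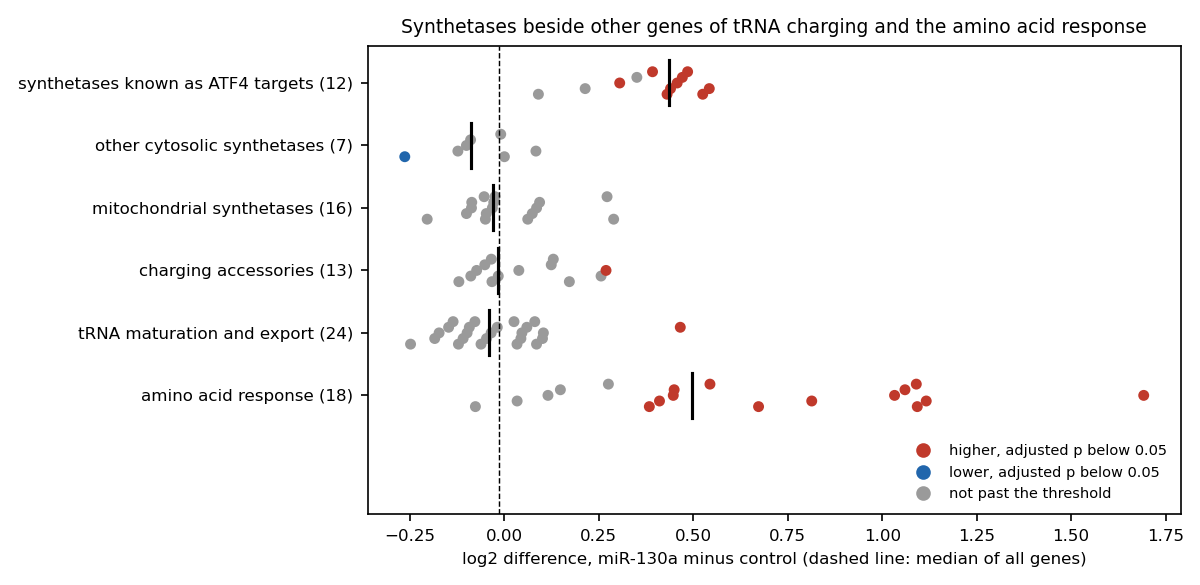
Log2 difference, miR-130a minus negative control, of each measured gene (points) in 6 gene lists, with a black bar for the list's median and a dashed line for the median of all genes (-0.01). Synthetases known as ATF4 targets (median 0.44) and the amino acid response (0.50) lie right of the dashed line, and the other 4 lists have medians between -0.09 and -0.02. The lists were drawn up with earlier results of these data known.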

How the data were processed

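The authors deposited log2 expression values that the submitters' processing notes credit to RMA and Affymetrix Expression Console; versions and the genome build are not given in the sources used here, and the log2 scale was taken from the range of the values. Of 70753 rows, 67528 held values and 23781 carried 1 gene symbol in GEO's platform annotation. Symbols were updated through Entrez identifiers with RefSeq (GRCh38.p14), and the row with the highest mean represented each of 22465 genes. The arms were compared with limma 3.58.1 in R 4.3.3 (lmFit, eBayes; 3 arrays each, two-sided, Benjamini-Hochberg over all genes, threshold 0.05). SE is limma's moderated error of the log2 difference, also beside a fold. All members were named, with the 4 genes of smallest p of each further list. The members and lists were chosen with earlier results of these data known. The fit was also run on simulated data with independent noise on each array, which does not cover an array that stands apart. Alternatives were a replicate block, a dim-row filter, array weights, trend and robust moderation, median centring, another quantile normalization, averaging a gene's rows, testing all rows, and leaving out each array. The number of arrays limits the precision.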

Additional observations from a re-analysis of the deposited data

How the results depend on the processing

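Over 14 alternatives, 9 cytosolic rises became 6 to 11, and no mitochondrial gene rose. The 11 came with array weights, where 6.12% of all genes rose. With 1 array left out, 0.783% to 4.88% of all genes rose and 0.272% to 5.14% fell, and the cytosolic median was 0.26 to 0.33. The single cytosolic fall, HARS1, was lost with the replicate number as a block, with median centring and with all rows tested (0 falls each), array weights gave 2, and leaving out 1 array gave 0 to 3. TARS2 made 1 mitochondrial fall with trend and robust moderation and 1 with array weights. Of all genes, 2.91% fell with trend and robust moderation and 7.52% with array weights. Genes called overall went from 950 to 520 (median centring), 1449 (trend and robust), 3065 (array weights) and 277 (all rows), and to 237 (without miR-130a 3) to 2252 (without negative control 3) with 1 array left out. The array weights were estimated gene by gene, a choice made after seeing that the default estimate did not converge on these arrays. With the replicate block, 8 cytosolic genes rose, since NARS1 missed the threshold (adjusted p = 0.0535), as did HARS1 (0.0789) and SEPSECS (0.0805). Same-numbered arrays deviated together at r = -0.0674, 0.0585 and 0.0893, so the numbers were not taken to pair the samples. Signs turned for members near 0. FARSA gave 0.0255 with second quantile normalization, 0.0116 with median centring and -0.0515 to 0.014 with 1 array left out, and KARS1 gave 0.0155, 0.0213 and -0.0187 to 0.0227. VARS2 was at 0.0132 with array weights and -0.0786 to 0.0401 with 1 array left out, and WARS2 at -0.0129 with array weights. The cause of these changes was not tested.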
